A study of Mus musculus with 9 samples.

Results

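The vacuolar H+-ATPase (V-ATPase) proton pump was followed through 10 of its subunit genes among the 56691 genes of the deposited table, chosen by gene symbol: Atp6v0d2, Tcirg1, Atp6v0d1, Atp6v0a1, Atp6v1a, Atp6v1b2, Atp6v1c1, Atp6v1e1, Atp6v1h and Atp6ap1. The cells were RAW264.7, an established mouse macrophage line that becomes osteoclast-like under RANKL, the cytokine that drives osteoclast formation. All 9 libraries came from this line after 3 days of culture, 3 each from untreated control cells, cells given RANKL (RANKL group) and cells given RANKL together with uridine (UD; RANKL + UD group), and the comparisons ask which pump genes moved with RANKL and with UD. The design text calls the 3 libraries of a group biological replicates, without saying whether they came from separate thaws or passages, so the p-values measure the spread between these libraries. No group received UD without RANKL.

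The V-ATPase pumps protons across membranes at the cost of ATP. Its V1 sector lies in the cytosol and splits ATP, and its V0 sector lies in the membrane and carries the protons. In most cells the pump acidifies endosomes and lysosomes. In osteoclasts it is also placed in the ruffled border facing the bone, where the acid dissolves mineral, and the V0 subunits a3 (encoded by Tcirg1) and d2 (encoded by Atp6v0d2) are the forms best known from that cell type. Loss of a3 causes osteopetrosis, and d2 is also known for its part in the fusion of osteoclast precursors.

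The 2 d subunits are encoded by separate genes, and a read can be assigned to one or the other only where the genes differ. Over 1048 aligned coding bases, Atp6v0d1 and Atp6v0d2 were identical at 66.3%, and their longest identical run was 17 bases, against reads of 150 bases. A stretch of coding bases 138 to 197, in exon 2 of both genes, is printed to show this spacing, with the 16 differing bases in capitals (GENCODE M21, GRCm38, minus strand, chr8:105539426-105539485 and chr4:19910692-19910751).
Atp6v0d1: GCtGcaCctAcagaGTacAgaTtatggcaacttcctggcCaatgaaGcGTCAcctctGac
Atp6v0d2: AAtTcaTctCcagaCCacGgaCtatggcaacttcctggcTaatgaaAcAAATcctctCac
The a subunit genes were as far apart. Tcirg1 was identical to Atp6v0a1 at 64.2% and to Atp6v0a2 at 66.1% of aligned coding bases, with longest identical runs of 29 and 20 bases.

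RefSeq promoter windows on GRCm38.p6, from 250 bases before to 50 bases after the start, were at hand for 6 of the 10 members in 8 windows. Atp6v0d2, Atp6v1b2, Atp6v1c1 and Atp6v1h had no entry. The palindrome TCACGTGA, the core of the site known for the MITF and TFEB factors that regulate lysosomal genes, was found in the windows of Atp6v0d1 and Atp6v1a, and in 0.974% of all 32851 windows. The shorter CACGTG inside it occurred in the same windows and in 7.15% of all windows. Both pieces are printed with the palindrome in capitals because the promoters of pump genes are known for it (Atp6v0d1, minus strand, chr8:105566041-105566088; Atp6v1a, minus strand, chr16:44139364-44139411).
Atp6v0d1: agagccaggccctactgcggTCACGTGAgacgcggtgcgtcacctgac
Atp6v1a: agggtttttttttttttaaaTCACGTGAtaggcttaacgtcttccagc
Counted from the start site, the palindrome began at position -4 for Atp6v0d1 and at -132 for Atp6v1a. TGANTCA, the letters of an AP-1 site, was found for Atp6v0a1 and in 7.81% of all windows. TGGAAA on either strand, the core bound by NFAT factors, was found for Atp6ap1, Atp6v0a1 and Atp6v0d1, and in 21.4% of all windows. These matches are letters in a window, and no binding was measured here.

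Library totals ranged from 15951800 to 19746862 counts, and the members had between 375 counts (Atp6v0d2, a control library) and 42951 counts (Atp6v1a). Levels are given as FPKM, the count per kilobase of exon, scaled to the total of the library. The length is the deposited exonic size of each gene, from 1793 bases (Atp6v0d1) to 9746 (Atp6v1h) among the members. It need not be the length of the transcripts present, so comparisons of level between genes depend on it. Fold changes are log2 values from edgeR's quasi-likelihood test on the counts, fitted over the 11995 genes that reached 1 FPKM in 3 or more libraries, and a gene is called at a Benjamini-Hochberg adjusted p under 0.05. All 10 members exceeded that minimum in every library. The labelled cell type was checked against its markers. The 8 osteoclast markers summed to 38.3 to 41.2 FPKM in control, 2301 to 2501 in RANKL and 1439 to 1466 in RANKL + UD libraries, with Calcr at 0 in control. The 6 macrophage markers summed to 8824 to 9412, 2337 to 2570 and 2041 to 2169 FPKM in the same order, while the T and B cell markers were at 0 in every library, the 6 fibroblast and osteoblast markers summed to at most 0.99 and the 4 epithelial and endothelial markers to at most 0.29. In bulk RNA, a change in the share of cells that became osteoclast-like and a change in RNA per cell cannot be told apart.

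With RANKL, all 10 members were called higher than in control, where 27.3% of all tested genes were called higher and 30.2% lower. The median log2 fold change of the members was 1.45, with a range of 0.47 to 5.35, and that of all tested genes was -0.03. In 10 of 10 members every RANKL library lay above every control library in FPKM, as it did in 22.9% of all tested genes. The reverse held in 38.8% of them. With UD added to RANKL, all 10 members were called lower than with RANKL alone, where 20.2% of tested genes were called lower and 18.6% higher. Their median was -0.39, with a range of -0.74 to -0.15, beside a median of 0.00 over all tested genes. Every RANKL + UD library lay below every RANKL library in 10 of 10 members and in 17.6% of all tested genes, and above in 34.1%. Set against control, RANKL + UD left 9 members called higher and 1, Atp6v0a1, called lower, where 26.7% of tested genes were called higher and 27.3% lower. For those 9 members every RANKL + UD library lay above every control library, as in 29.5% of tested genes. These positions of libraries are in FPKM, scaled to library totals, while the calls use edgeR's TMM scaling. The RANKL libraries stand in both of the first 2 comparisons, which are therefore not independent of each other. The sum of the 8 osteoclast markers moved in the same order of groups as 9 of the members. Ctsk, which is among them, averaged 8.34 FPKM in control, 1491 in RANKL and 869.3 in RANKL + UD libraries. The sums in both RANKL-treated groups thus rest largely on that gene. Of the 8, 3, 7 and 6 reached 1 FPKM in every library of the 3 groups. The macrophage marker sum was lowest in RANKL + UD libraries, and 5 of the 6 macrophage markers reached 1 FPKM in every library of each group. That sum is not broken down by gene here, so single markers may differ from it. The part of either set of markers in the members' values was not tested.

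**Figure D1:**
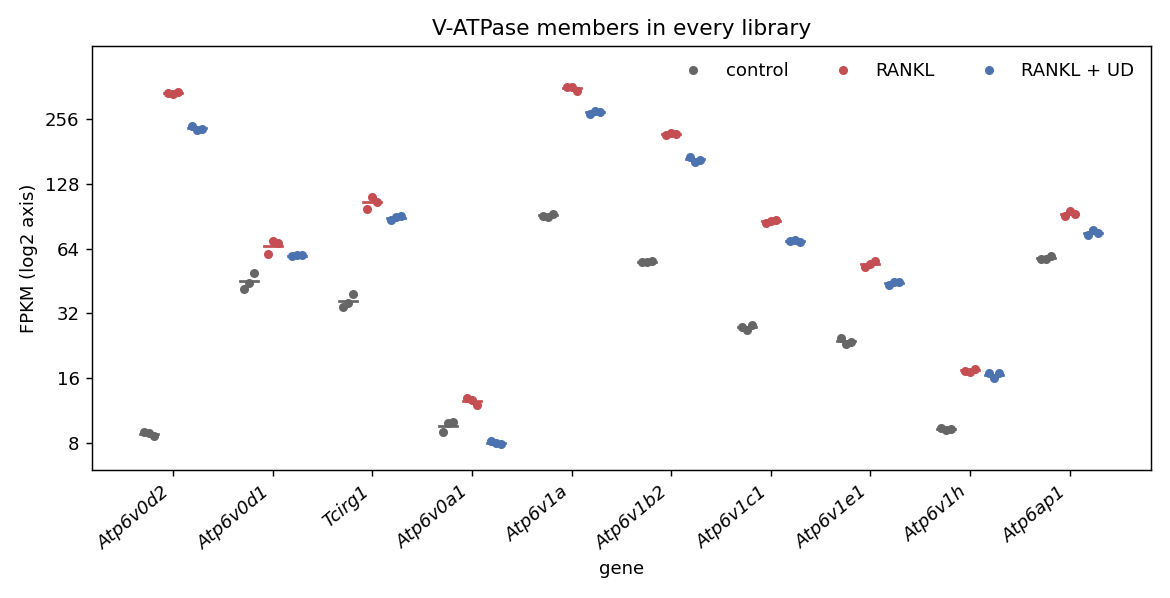
FPKM (log2 axis) of the 10 V-ATPase members in each library, with grey points for control, red for RANKL and blue for RANKL + UD, 3 points a group and a bar at the mean. Atp6v0d2 lay near 9 in control and between 336.4 and 342.4 in RANKL libraries, and Atp6v0a1 is the member whose RANKL + UD points lie below its control points.

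The d subunits form the stalk that joins the V0 ring to the central shaft of V1. Atp6v0d2 (ENSMUSG00000028238, chr4:19876841-19922605 in the deposited coordinates, minus strand) had 9.01, 8.89 and 8.66 FPKM in the control libraries, 339.7, 336.4 and 342.4 in the RANKL libraries and 236.5, 227.6 and 230.8 in the RANKL + UD libraries. The 3 groups did not overlap, and the spread within a group was small beside the steps between them. With RANKL its mean was 38.3-fold that of control in FPKM, and its fitted log2 fold change was 5.35 (SE 0.06, edgeR adjusted p = 6.98e-25). With UD it was at 0.682 of the RANKL mean (log2 fold change -0.64, SE 0.04, edgeR adjusted p = 4.17e-10), which was still 26.2-fold the control mean.

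Atp6v0d1 encodes the d form found in most tissues (chr8:106251097-106292679, minus strand). Its FPKM was 41.4, 44.5 and 49.5 in control, 60.5, 69.6 and 67.7 in RANKL and 59.0, 59.5 and 59.9 in RANKL + UD libraries. The lowest RANKL library lay just above the highest RANKL + UD library, so these groups were close to touching. Atp6v0d1 rose with RANKL by 0.63 on the log2 scale (SE 0.06, edgeR adjusted p = 2.97e-08). Its log2 fold change with UD was -0.23 (SE 0.06, edgeR adjusted p = 0.00563), and this call was lost when libraries were scaled by their totals alone, at -0.15 (adjusted p = 0.0691).

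As a share of the summed d subunit FPKM, Atp6v0d2 made up 17.9%, 16.7% and 14.9% in the control libraries, 84.9%, 82.9% and 83.5% in the RANKL libraries and 80.0%, 79.3% and 79.4% in the RANKL + UD libraries. In FPKM the ubiquitous form was thus the higher of the d transcripts in control, and Atp6v0d2 was in both RANKL-treated groups. The mean share rose from 16.5% ± 1.51 to 83.7% ± 1.05 (SD, n = 3) with RANKL, a difference of 67.3 percentage points (two-sided exact permutation p = 0.1, the smallest that 3 against 3 libraries can give). With UD it was 79.6% ± 0.408 (SD, n = 3), a difference of -4.18 points from RANKL alone, and the groups did not overlap (exact permutation p = 0.1). A share within a library does not depend on how libraries are scaled, but it does depend on the gene lengths used. In counts not divided by length, the Atp6v0d2 share was 20.9% to 24.8% in control libraries. It was 88.0% to 89.5% in RANKL and 85.3% to 85.9% in RANKL + UD libraries.

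The a subunits form the path of the protons through the membrane and direct the pump to its membrane. Tcirg1, encoding a3 (chr19:3946050-3957133, minus strand), had 34.2, 35.9 and 39.3 FPKM in control, 98.0, 111.5 and 105.6 in RANKL and 87.1, 89.6 and 90.5 in RANKL + UD libraries. All RANKL + UD libraries lay between the other groups. Tcirg1 rose with RANKL by 1.61 (log2, SE 0.06, edgeR adjusted p = 5.67e-16) and was lower by -0.32 with UD (log2, SE 0.05, edgeR adjusted p = 6.72e-05).

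Atp6v0a1, encoding a1, a form best known from neurons (chr11:100900278-100954545, plus strand), had 9.0, 9.89 and 9.99 FPKM in control, 13.0, 12.7 and 12.0 in RANKL and 8.17, 7.97 and 7.89 in RANKL + UD libraries. It was the member whose RANKL + UD libraries all lay below the control libraries, a pattern seen in 30.4% of tested genes. It rose with RANKL by 0.47 (log2, SE 0.06, edgeR adjusted p = 8.75e-07). With UD its log2 fold change was -0.74 against RANKL (SE 0.06, edgeR adjusted p = 6.89e-09), the lowest of the 10 members, and -0.26 against control (SE 0.06, edgeR adjusted p = 0.00116). An unnamed gene model on the same strand (ENSMUSG00000121184, mean 1.00 FPKM) overlaps 1821 bases of its span. Over the 9 libraries, Pearson's r of its log2(FPKM + 1) with each other member was 0.17 to 0.52, while the other members correlated with each other at 0.92 to 0.999. These libraries form 3 groups, so r mostly describes the group means.

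Among the a subunits, Atp6v0a2, encoding a2 and no member, had 11.5, 11.1 and 13.0 FPKM in control, 12.6, 12.8 and 12.7 in RANKL and 15.7, 16.4 and 14.9 in RANKL + UD libraries. It was higher with UD than with RANKL alone by 0.21 (log2, edgeR adjusted p = 0.00823), opposite to Tcirg1 and Atp6v0a1, a call lost without RANKL + UD replicate 2 (adjusted p = 0.0519). Atp6v0a4, the kidney form, was at 0 in every library. Of the summed a subunit FPKM, Tcirg1 made up 62.9% ± 0.313 in the control group, 80.6% ± 1.11 in the RANKL group and 79.0% ± 0.787 when UD was added (SD, n = 3). Its share rose by 17.6 points with RANKL (two-sided exact permutation p = 0.1, the smallest possible). The difference of -1.56 points between RANKL + UD and RANKL was within the overlap of the libraries (exact permutation p = 0.2). The share of Atp6v0a1 went from 16.6% (control) to 9.67% (RANKL) and 7.11% (RANKL + UD libraries), and that of Atp6v0a2 from 20.4% to 9.77% and 13.9%.

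**Figure D2:**
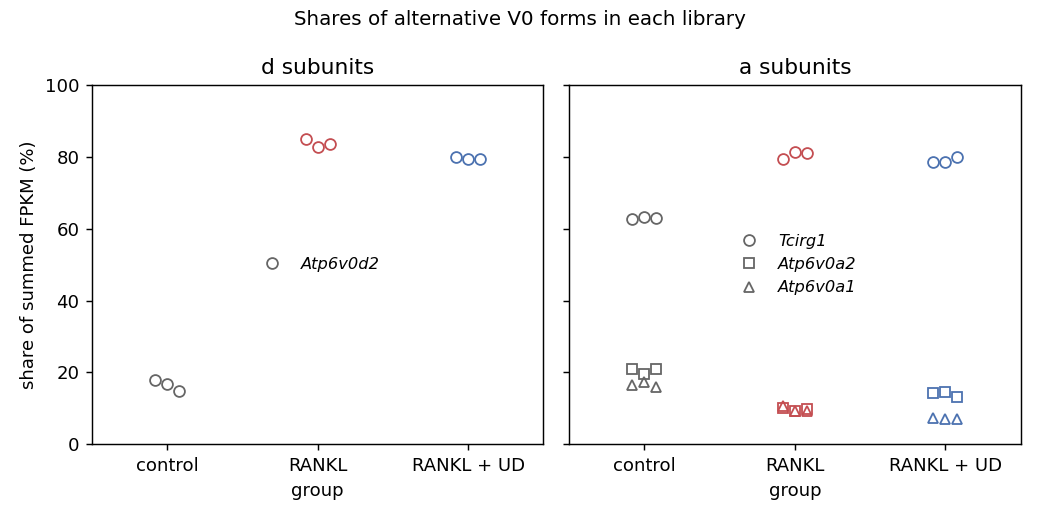
Share of the summed FPKM (%) of the d subunits (left, Atp6v0d2) and of the a subunits (right, Tcirg1 circles, Atp6v0a2 squares, Atp6v0a1 triangles) in each of the 3 libraries of a group, with grey for control, red for RANKL and blue for RANKL + UD. Atp6v0d2 went from 14.9% to 17.9% in control to 82.9% to 84.9% with RANKL, and Tcirg1 from 62.6% to 63.2% in control to 79.3% to 81.4%.

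In V1, the A and B subunits alternate in a ring in which ATP is bound and split, A being the catalytic one. Atp6v1a, encoding A (chr16:43905765-43960068, minus strand), had the highest FPKM of the members in all 3 groups. It had 90.9, 90.3 and 92.7 FPKM in control, 360.6, 360.9 and 346.7 in RANKL and 270.0, 278.1 and 276.8 in RANKL + UD libraries. Atp6v1b2, encoding the widely expressed B2 (chr8:69541298-69566363, plus strand), had 55.3, 55.7 and 56.4 FPKM in control, 216.4, 220.6 and 218.6 in RANKL and 171.2, 162.2 and 165.7 in RANKL + UD libraries. Both genes kept the 3 groups apart and moved by nearly the same factors. The log2 fold changes with RANKL were 2.05 for Atp6v1a (SE 0.04, edgeR adjusted p = 1.96e-19) and 2.06 for Atp6v1b2 (SE 0.04, edgeR adjusted p = 3.29e-19). With UD they were -0.46 (edgeR adjusted p = 2.59e-08) and -0.48 (edgeR adjusted p = 2.14e-08). Atp6v1b1, the B form of kidney and inner ear, was at most 0.05 FPKM in any library. Slc18a1 on the other strand overlaps Atp6v1b2 over 590 bases, with a mean of 1.87 FPKM, and whether counting used the strand is not given in the sources used here.

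Subunits C, E and H belong to the stalks and regulators of V1. Atp6v1c1, encoding C1 (chr15:38662177-38692690, plus strand), had 27.8, 26.8 and 28.2 FPKM in control, 84.4, 86.4 and 86.7 in RANKL and 69.3, 70.0 and 68.5 in RANKL + UD libraries. Atp6v1e1, encoding the stalk subunit E1 (chr6:120771266-120799754, minus strand), had 24.7, 23.0 and 23.7 FPKM in control, 52.6, 54.4 and 56.1 in RANKL and 43.5, 44.6 and 44.6 in RANKL + UD libraries. In both genes the RANKL + UD libraries lay between the other groups. Atp6v1c1 rose by 1.72 (log2, SE 0.05, edgeR adjusted p = 5.84e-18) and Atp6v1e1 by 1.28 (log2, SE 0.05, edgeR adjusted p = 3.33e-15) with RANKL. Against RANKL, UD gave log2 fold changes of -0.39 (edgeR adjusted p = 3.93e-07) for Atp6v1c1 and -0.38 (edgeR adjusted p = 1.92e-06) for Atp6v1e1.

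Atp6v1h, encoding H, which holds ATP hydrolysis in check when V1 is detached (chr1:5140241-5232752, plus strand), had 9.43, 9.16 and 9.26 FPKM in control, 17.4, 17.2 and 17.7 in RANKL and 16.9, 16.1 and 16.9 in RANKL + UD libraries. It rose with RANKL by 0.99 (log2, SE 0.05, edgeR adjusted p = 2.01e-13). The step with UD was the smallest of the 10 members, at -0.15 (log2, SE 0.05, edgeR adjusted p = 0.0137). The call for Atp6v1h with UD was lost when libraries were scaled by their totals alone (-0.07, adjusted p = 0.270), with all genes in the fit (adjusted p = 0.0544) and without RANKL + UD replicate 2 (-0.13, adjusted p = 0.0848).

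Atp6ap1, encoding the accessory protein Ac45 that takes part in V0 assembly and in guiding the pump (chrX:73340703-73348327, plus strand), had 57.1, 57.4 and 58.9 FPKM in control, 91.2, 95.4 and 93.2 in RANKL and 74.4, 78.3 and 75.5 in RANKL + UD libraries. The groups did not overlap. It rose with RANKL by 0.78 (log2, SE 0.05, edgeR adjusted p = 3.39e-12) and its log2 fold change with UD was -0.38 (SE 0.04, edgeR adjusted p = 8.50e-07).

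**Figure D3:**
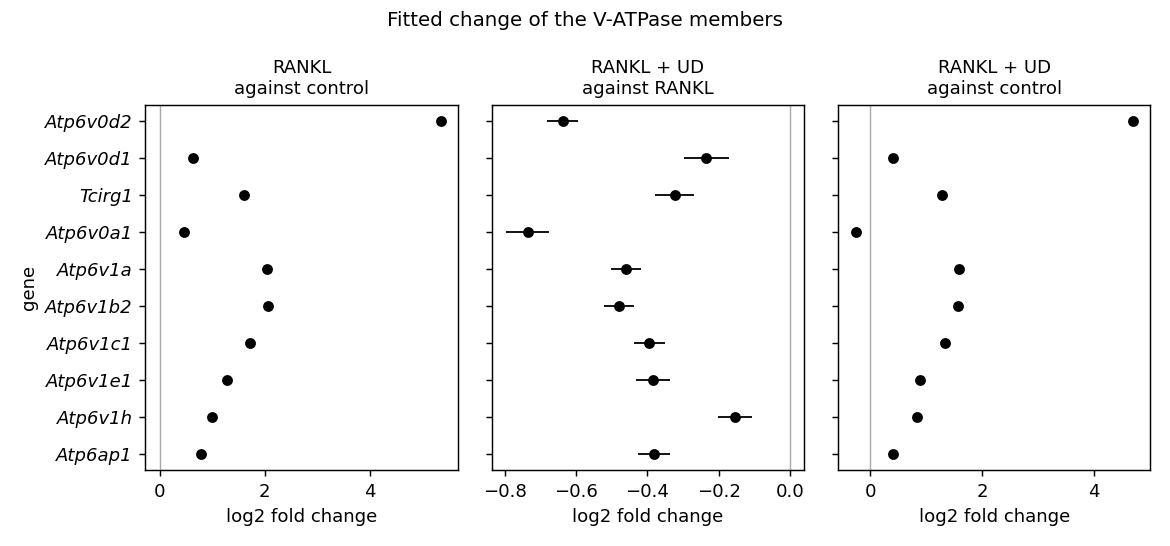
Log2 fold change of each member (points, edgeR) with its standard error (lines) for RANKL against control, RANKL + UD against RANKL and RANKL + UD against control, each panel with its own scale and a grey line at 0. The members lie at 0.47 to 5.35 in the first panel and at -0.74 to -0.15 in the second, and Atp6v0a1 alone lies below 0 in the third.

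The members differed in how much of their rise was left with UD, taken as the RANKL + UD mean minus the control mean, divided by the RANKL mean minus the control mean, in FPKM. For 6 members (Atp6v0d2, Atp6v0d1, Atp6v1a, Atp6v1b2, Atp6v1c1 and Atp6v1e1) it was 66.9% to 71.6%. It was 76.8% for Tcirg1, 90.2% for Atp6v1h and 51.5% for Atp6ap1. For Atp6v0a1 it was -54.9%, since the level fell below control. On TMM-scaled CPM the values were 57.8% to 65.7% for those 6 members, 70.2% for Tcirg1, 79.7% for Atp6v1h, 44.4% for Atp6ap1 and -43.1% for Atp6v0a1. These are ratios of means of 3 libraries and carry no test.

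The order of levels in FPKM differed between control and RANKL. In control it ran from Atp6v1a (91.3) through Atp6ap1 (57.8), Atp6v1b2 (55.8), Atp6v0d1 (45.1), Tcirg1 (36.5), Atp6v1c1 (27.6), Atp6v1e1 (23.8), Atp6v0a1 (9.63) and Atp6v1h (9.28) to Atp6v0d2 (8.85), with only the ranges of Atp6v0a1 and Atp6v1h overlapping among neighbours. With RANKL, Atp6v0d2 moved from the last place to the second (339.5), behind Atp6v1a (356.1), and was followed by Atp6v1b2 (218.5), Tcirg1 (105.0), Atp6ap1 (93.2), Atp6v1c1 (85.8), Atp6v0d1 (65.9), Atp6v1e1 (54.4), Atp6v1h (17.4) and Atp6v0a1 (12.6). No neighbours overlapped in their ranges, and RANKL + UD had the same order of the 10 members. The order and the sums below depend on the exonic lengths, which the ranges of the libraries do not reflect. In RANKL replicate 1, Atp6v1h had 3338 counts and Atp6v0d1 had 2136, the reverse of their FPKM order. The 4 V0 members summed to 100.1 ± 6.96 FPKM in the control group, 523.0 ± 10.3 in the RANKL group and 388.2 ± 3.19 when UD was added (SD, n = 3). Without Atp6v0d2 the sums were 91.2, 183.5 and 156.6. The 5 V1 members summed to 207.7 ± 2.61, 732.2 ± 6.89 and 571.5 ± 0.892 FPKM in the same order (SD, n = 3).

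The other subunits of the pump were taken from a list of 16 genes, of which 9 passed the filter. With RANKL 8 of the 9 were called higher and 1 lower, beside 27.3% and 30.2% of all tested genes, with a median log2 fold change of 1.35 beside -0.03. The 8 include Atp6v0a2 (0.19, edgeR adjusted p = 0.0125), whose RANKL and control libraries overlapped in FPKM. Settings that lost this call include total counts (edgeR adjusted p = 0.167) and limma with either pseudocount (adjusted p = 0.206 and 0.205). With UD 6 of the 9 were called lower, 2 higher and 1 was not called, beside 20.2% lower and 18.6% higher, with a median of -0.31 beside 0.00. Against control, RANKL + UD had 8 called higher and 1 not called, beside 26.7% of all tested genes called higher and 27.3% lower. Atp6v1d, encoding the central shaft of V1, had 13.6, 13.9 and 14.1 FPKM in control, 61.1, 61.2 and 61.8 in RANKL and 51.4, 47.3 and 48.6 in RANKL + UD libraries. It rose by 2.23 with RANKL (log2, edgeR adjusted p = 5.90e-19) and changed by -0.41 with UD (edgeR adjusted p = 7.22e-07). Atp6v1g1, the stalk partner of E, rose by 1.51 (edgeR adjusted p = 4.19e-15) and changed by -0.48 with UD (edgeR adjusted p = 9.87e-07). The membrane subunit Atp6v0e rose by 1.64, the ring subunit Atp6v0c by 1.28 and the V1 subunit Atp6v1f by 1.35, and with UD they changed by -0.31, -0.37 and -0.31. The call on Atp6v0c with UD was lost with limma on log2(FPKM + 1) and log2(FPKM + 0.1) (adjusted p = 0.0523 and 0.0561). Reads of Atp6v0c can be shared with its copy Atp6v0c-ps2, which was listed at 105.7, 260.5 and 237.8 mean FPKM in the 3 groups, so its values are uncertain.

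Atp6ap2, the accessory protein also known as the (pro)renin receptor, had 71.3, 69.8 and 69.4 FPKM in control, 205.5, 200.1 and 197.4 in RANKL and 205.8, 213.4 and 214.8 in RANKL + UD libraries. It rose with RANKL by 1.61 (log2, SE 0.05, edgeR adjusted p = 1.56e-17), and its log2 fold change with UD was -0.01 (SE 0.04, edgeR adjusted p = 0.837), against -0.38 for the other accessory protein, Atp6ap1. The difference between these genes was not tested. In FPKM every RANKL + UD library of Atp6ap2 lay above every RANKL library, as in 34.1% of all tested genes. The RANKL + UD mean was 1.05 times the RANKL mean. With total counts its log2 fold change with UD was 0.07 (edgeR adjusted p = 0.194), so its sign changed with the scaling. Atp6v0e2 went the other way from most subunits, with 7.38, 8.59 and 8.50 FPKM in control, 6.67, 6.08 and 6.17 in RANKL and 7.73, 9.53 and 8.36 in RANKL + UD libraries. It changed by -0.28 with RANKL (edgeR adjusted p = 0.0261) and by 0.35 with UD (edgeR adjusted p = 0.0120). The first call on Atp6v0e2 was lost without control replicate 2 or 3 or RANKL replicate 2 or 3 (adjusted p = 0.0663 to 0.0967) and with no expression filter (adjusted p = 0.0608), and the second without RANKL + UD replicate 2 (adjusted p = 0.0821).

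Of 12 genes for assembly and regulation of the pump, 11 were tested. With RANKL 8 were called higher and 3 lower, with a median log2 fold change of 0.32, where 27.3% of all tested genes were called higher and 30.2% lower. With UD 1 was called higher, 3 lower and 7 were not called, with a median of 0.00. These few calls with UD were near the background of 18.6% higher and 20.2% lower, and are no result about the list. Dmxl1, a subunit of the RAVE-like complex that joins V1 to V0, had 7.35, 7.37 and 7.24 FPKM in control, 45.7, 44.4 and 35.0 in RANKL and 42.9, 44.8 and 43.4 in RANKL + UD libraries. It rose by 2.60 with RANKL (log2, SE 0.07, edgeR adjusted p = 1.66e-17). Its log2 fold change with UD was -0.02 (edgeR adjusted p = 0.859), and -0.13 (adjusted p = 0.0191) without RANKL replicate 3, the lowest of the RANKL libraries for Dmxl1.

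Rogdi, of the same complex, was lower with RANKL, at 6.56, 6.94 and 7.36 FPKM in control, 2.45, 2.94 and 2.45 in RANKL and 3.45, 4.47 and 4.35 in RANKL + UD libraries. Its log2 fold changes were -1.32 with RANKL (edgeR adjusted p = 3.51e-08) and 0.56 with UD (edgeR adjusted p = 0.00355). Wdr7, also of this complex, changed by 0.69 with RANKL (edgeR adjusted p = 1.06e-09) and by -0.42 with UD (edgeR adjusted p = 3.92e-06), and Dmxl2, a relative of Dmxl1, by -0.58 with RANKL (edgeR adjusted p = 4.29e-06). Tbc1d24 rose by 1.14 with RANKL (edgeR adjusted p = 9.80e-12) and Meak7 by 0.58 (edgeR adjusted p = 0.000312). The assembly factors of the endoplasmic reticulum, Vma21, Tmem199 and Ccdc115, rose by 0.26, 0.36 and 0.28 with RANKL (edgeR adjusted p = 0.000119, 0.000230 and 0.00101) and none of these 3 was called with UD (edgeR adjusted p = 0.976, 0.987 and 0.637).

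**Figure D4:**
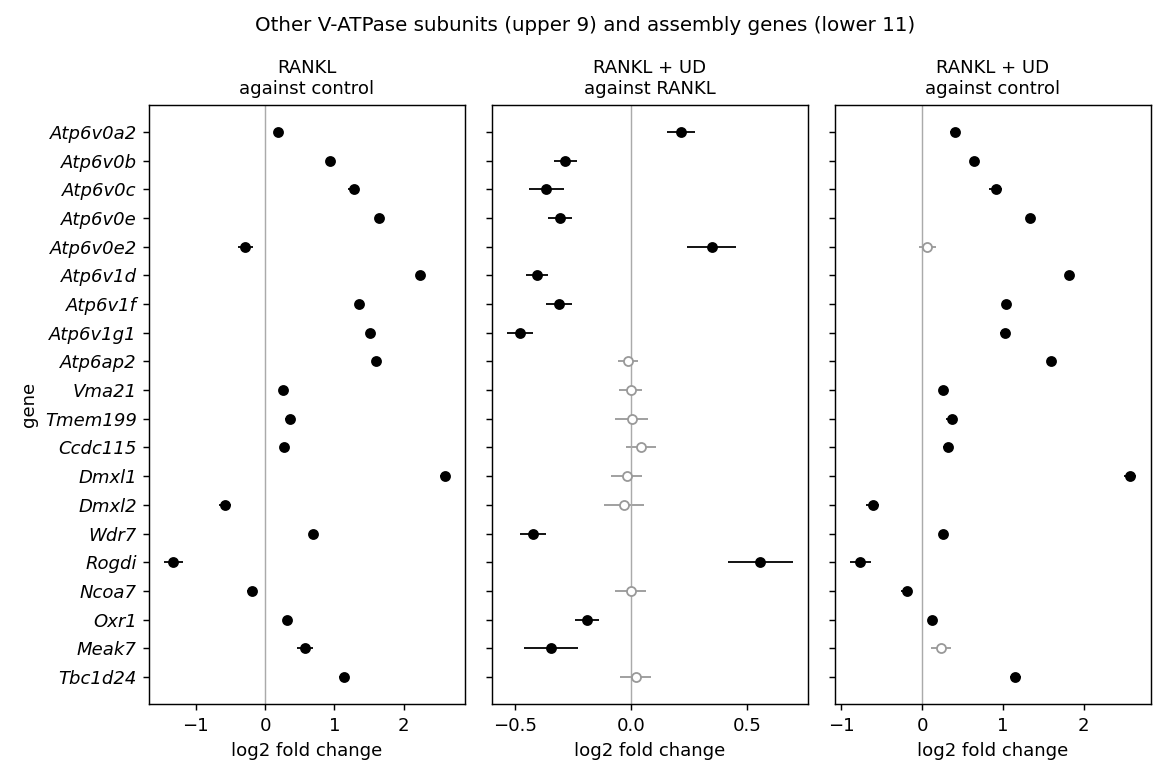
Log2 fold change (edgeR, points) with standard error (lines) of 9 other V-ATPase subunits and 11 assembly and regulation genes in the 3 comparisons, each panel with its own scale. Filled points passed an adjusted p of 0.05 and open points did not, and Atp6ap2 and Dmxl1 lie far above 0 in the first panel and near 0 in the second.

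The genes most like Atp6v0d2 over the 9 libraries, by Pearson's r of log2(FPKM + 1) among the tested genes, were Ctsk, Scin, Ccl9, Dtx4 and Mst1r, with r from 0.9989 to 0.9999. Ctsk, encoding the collagen-degrading protease of osteoclasts, averaged 8.34 FPKM in control, 1491 in RANKL and 869.3 in RANKL + UD libraries. For Scin, an actin-severing protein, the means were 0, 46.4 and 30.8. For Tcirg1 the 5 genes were Fblim1, Slc4a2, Nfatc1, Coq8a and Glb1, with r from 0.9974 to 0.9979. Slc4a2, encoding the chloride and bicarbonate exchanger of osteoclasts, had means of 5.61, 26.8 and 20.8 FPKM, and Nfatc1, encoding the transcription factor known as the master regulator of osteoclasts, 10.5, 76.1 and 57.5. These libraries fall into 3 groups, so many genes reach a high r and none carries a test.

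The scaling of the libraries bears on how large the UD step is. The 3 RANKL libraries had TMM factors of 0.959 to 0.962, while the other 6 had 1.01 to 1.03. Scaling by totals alone put the median of all genes at -0.12 (log2) with RANKL against control and at 0.09 with UD against RANKL. The share of calls that were higher went from 47.5% to 36.8% in the first and from 48.0% to 66.2% in the second. Under that scaling the members' median with UD was -0.30, with 8 of 10 called lower and 0 called higher. Of all tested genes, 14.2% were called lower and 27.9% higher there. The members left out were Atp6v0d1 and Atp6v1h. The members' calls with RANKL kept 10 of 10 higher, where 21.5% of all tested genes were called higher and 36.9% lower.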

How the data were processed

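RNA was poly(A)-selected and sequenced from strand-specific libraries as paired reads of 150 bases, per the labels. Raw counts per gene, as whole numbers, were deposited by the authors beside each gene's exonic length. The authors derived the deposited FPKM from those counts and lengths, and recomputing it matched within 0.011 for 100% of genes. The labels list mm10. Aligner, counting tool and annotation are not given in the sources used here. The coordinates are those of the deposited table, and 1 of 10 members had the start and end of GENCODE M21 on GRCm38, so their build is uncertain and no sequence was read by them.

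Groups came from the labels. Columns headed model were read as the RANKL group, which the paper also calls by that word. All 9 libraries entered 1 fit in edgeR 4.0.16 (R 4.3.3) with TMM scaling and no covariate, after a filter that left 11995 of 56691 genes. The standard errors (SE) printed and drawn were derived from that test, as the absolute log2 fold change divided by the square root of F. The procedure was tested on simulated data. Exact permutation tests used scipy 1.17.1. The members and gene lists were chosen with earlier results of these data known. Up to 6 called genes with the largest change were named from each list, as were the 5 genes most like Atp6v0d2 and Tcirg1, and further list genes were named after their values were seen. Alternatives were DESeq2 1.42.0, RLE size factors, total counts, no filter, an FPKM of at least 5, limma 3.58.1 on log2(FPKM + 1) and log2(FPKM + 0.1), only the 6 libraries compared, a replicate block and each library left out. The chi-square per degree of freedom between replicates was 2.83 to 8.22, more than counting error alone would give. It cannot show whether the libraries of a group came from separate cultures, since library preparation also adds spread. Depth sets counting error only. No sequencing batch is given in the labels.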

Additional observations from a re-analysis of the deposited data

How the results depend on the processing

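Over 15 alternatives for each of the 10 members, 0 of 150 values changed the call or the direction with RANKL against control, 0 of 150 with RANKL + UD against control, and 8 of 150 lost the call with RANKL + UD against RANKL, with 0 reversed. These 8 belong to Atp6v0d1 and Atp6v1h. For Atp6v0d1 they were total counts (-0.15), limma on log2(FPKM + 1) (-0.14, adjusted p = 0.137) and limma on log2(FPKM + 0.1) (-0.15, adjusted p = 0.138). For Atp6v1h they were total counts (-0.07), no filter (-0.15), limma with either pseudocount (-0.06 and -0.07, adjusted p = 0.223 and 0.228) and leaving out RANKL + UD replicate 2 (-0.13). FPKM is scaled to library totals, so both limma fits and the total counts share the same library scaling. The cause of the lost calls was not tested. Over all alternatives 8 to 10 members were called lower with UD, where 9.18% to 26.5% of all tested genes were. Over all genes with UD against RANKL, 2233 were called higher and 2418 lower, and total counts gave 3350 higher while limma gave 1556 and 1536 lower with the 2 pseudocounts. With limma 65.7% and 66.0% of the calls were higher. Among the other subunits and assembly genes, 14 of 299 values lost the call with RANKL against control. With UD against RANKL 13 of 299 lost it and 1 gained it, and 15 of 299 lost it with RANKL + UD against control. Of the values called in the main fit 0 reversed, while values not called there, such as Atp6ap2 with UD, could change sign. Replicate numbers are shared between groups. Deviations from the group means correlated weakly at most between same-numbered libraries (r from -0.03 to 0.08 over 9 pairs, against -0.08 to 0.04 for different numbers). Most same-numbered pairs lay above 0, and whether these libraries were paired was not tested. With the replicate as a block the members were still 10 higher with RANKL and 10 lower with UD, beside 27.9% and 21% of all tested genes. Over all genes with UD, 2347 were higher and 2518 lower with the block, more than the 2233 and 2418 without it.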

Other observations

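Atp6v1g2, a subunit G form best known from neurons, did not pass the filter and was at 0.69 to 0.85 FPKM in control, 0.32 to 0.64 in RANKL and 0.85 to 1.42 in RANKL + UD libraries. Nfkbil1 on the other strand overlaps Atp6v1g2 over 2133 bases, with a mean of 10.1 FPKM. Whether counting used the strand is not given, so these low values of Atp6v1g2 are uncertain. The pseudogene Atp6v0c-ps2 was listed at 105.7 ± 9.90, 260.5 ± 30.0 and 237.8 ± 13.5 FPKM (SD, n = 3) in control, RANKL and RANKL + UD libraries, above the Atp6v0c gene in every group. Reads of these copies cannot be told apart from the deposited values.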
